A study of Mus musculus with 24 samples.

Results

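Polyamine metabolism was followed through 9 genes, namely Odc1, Srm, Sms, Sat1, Oaz1, Oaz2, Azin1, Smox and Paox, which were taken by symbol from the 19895 entries of the deposited table. All 9 were single entries with a count above 0 in every library, and they are therefore among the 11438 genes that were tested. The libraries come from mouse pancreatic organoids, which are three-dimensional cultures of duct cells. Normal (N) organoids were grown from ducts of wildtype mice, and KP organoids from pancreatic ductal adenocarcinoma tissue. Both were cultured without EGF and N-acetylcysteine and treated for 1 h with vehicle (DMSO) or with 10 nM CR-31, labelled CR1-31-b, a rocaglate that inhibits the RNA helicase eIF4A. With 3 replicates in each of the 4 groups there were 12 lysates. From every lysate mRNA bound by 3 or more ribosomes (polysome mRNA) and total mRNA were sequenced separately, so that 24 libraries were compared. The labels do not say whether replicates were separate cultures or animals, and p-values then measure only the spread between these samples, which may be technical. Nor do they say how many animals or tumours gave the organoids, so KP against N may compare single lines.

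Polyamines are small cations that bind RNA and are needed for growth and for translation. Ornithine decarboxylase (Odc1) makes putrescine from ornithine, spermidine synthase (Srm) turns putrescine into spermidine, and spermine synthase (Sms) turns spermidine into spermine. In the other direction, the acetyltransferase Sat1 marks spermidine and spermine for export or breakdown, Paox oxidises the acetylated forms, and Smox oxidises spermine directly. Antizymes (Oaz1, Oaz2) bind ornithine decarboxylase, send it to the proteasome and lower polyamine uptake, while the antizyme inhibitor Azin1, a relative of ornithine decarboxylase without its activity, binds antizyme and releases the enzyme. Full-length antizyme is made only when ribosomes shift by a base at a stop codon, which high polyamine levels favour, so this pathway is controlled in part by translation.

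The shift sites of both antizyme mRNAs were read from GRCm38 with GENCODE M21, because they show where polyamines act on translation of these members. The capitals mark the last codon of the first frame and the stop codon, TCC and TGA, each written 5′ to 3′.
Oaz1, chr10:80828280-80828306, forward strand: cctcggtggtgcTCCTGAtgtccctca
Oaz2, chr9:65686257-65686283, forward strand: cctctgtggtgcTCCTGAtgcccctca
The windows are 27 bases long and are identical at 25 bases. In the annotation 1 base is skipped at the shift, after 68 codons in Oaz1 and 32 codons in Oaz2, and 159 and 157 codons follow in the second frame. Polysome libraries count an mRNA on 3 or more ribosomes whether or not those ribosomes have passed the shift, so they do not show how often the shift was made.

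Rocaglates are known to clamp eIF4A on runs of purines. The study saw no excess of polypurines in 5′-UTRs of mRNAs whose translation fell with CR-31 in KP organoids. It found those 5′-UTRs to be a little shorter, richer in GC and more structured. The longest run of A and G in the longest annotated 5′-UTR of the members with the longest runs is shown in capitals, with 5 bases on each side.
Sat1, chrX:155216176-155216199, reverse strand, 14 purines: tgcgcAAAGGGAAGAAAAGcaaaa
Azin1, chr15:38518937-38518959, reverse strand, 13 purines: ccgccGAAAAAGAGAAGAcgctt
Smox, chr2:131491968-131491990, forward strand, 13 purines: gctgcGGAGGAGGGGAGGcggag
Oaz2, chr9:65676600-65676619, forward strand, 10 purines: gaggcAAGAGGAGGGcactc
The other 5 members had longest runs of 6 to 8 purines, and the median over the 11257 tested genes with an annotated 5′-UTR was 8. The 5′-UTRs differed widely in length, from 69 bases in Paox and 74 in Oaz1 to 489 in Odc1 and 747 in Azin1, beside a median of 184 bases over all genes. These are the longest annotated 5′-UTRs of each gene, and which ones these organoids used is not known. The shortest was 70 bases in Smox, and in Azin1 590 bases with 3 upstream ATG triplets. Upstream ATG triplets were found in 4 members, 2 in Odc1, 4 in Sms, 2 in Sat1 and 6 in Azin1, and in none of Srm, Oaz1, Oaz2, Smox and Paox, while 52.8% of all genes had at least 1. GC content was 52.2% in Azin1 and 55.5% in Sat1 and between 70.6% and 77.8% in the other 7 members, with a median of 64.5% over all genes.

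Reads counted per library ranged from 47308461 to 267463046, and the members had between 970 (Paox) and 428282 (Oaz1) counts in a library, so counting error was small beside the spread between replicates. All 10 markers of duct epithelium were above 0 in every library, and each of the lists of acinar, endocrine, fibroblast, immune and endothelial markers summed to at most 24.5 CPM (counts scaled to library size) in any library. The labels name the run and lane on which each library was sequenced, and no lane held both organoid types (2 lanes for each), so KP against N and the lane cannot be told apart. The 2 lanes of N belong to the same run and those of KP to different runs. Vehicle and CR-31 libraries of replicate 2 were therefore in different lanes for N and in different runs for KP. The 2 libraries with the largest deviations from their group are said below to stand apart. The vehicle-treated polysome library of N replicate 3 had a median deviation from the other 2 libraries of its group of 0.55 on the log2 scale, and the CR-31-treated total library of KP replicate 1 had one of 0.48, against 0.23 to 0.47 for the other 22 libraries. The latter was above the rest of its group (0.32 and 0.31) but close to the CR-31-treated polysome library of N replicate 3 (0.47).

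Per length, Oaz1 was the most abundant of the 9 mRNAs and Sat1 the next in polysome and total mRNA of vehicle-treated N and KP organoids. In RPKM (reads per length of transcript and depth of library, as deposited by the authors), polysome-associated Oaz1 was at 910, 925 and 728 in the 3 vehicle-treated N libraries and at 2060, 1540 and 1480 in KP. Sat1 followed at 435 ± 80.2 in N and 406 ± 63.7 in KP (mean ± SD, n = 3 each), and Odc1 came after it at 144 ± 98.2 and 183 ± 30.4. Odc1 and Oaz2 overlapped in N, where Oaz2 was at 83.4 ± 31.7, but not in KP. In polysome mRNA of N, the neighbouring pairs Smox and Srm, Srm and Azin1, and Azin1 and Sms overlapped, and Paox was lowest at 11.7 ± 3.37. Srm stood at 37.2 ± 11.6 RPKM in N, where it overlapped Smox, and at 129 ± 20.1 in KP, between Odc1 and Oaz2 and apart from both. Smox moved the other way in the order of levels, from 39.5 ± 5.13 in N to 15.7 ± 1.37 in KP, where it overlapped Sms and Azin1.

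**Figure D1:**
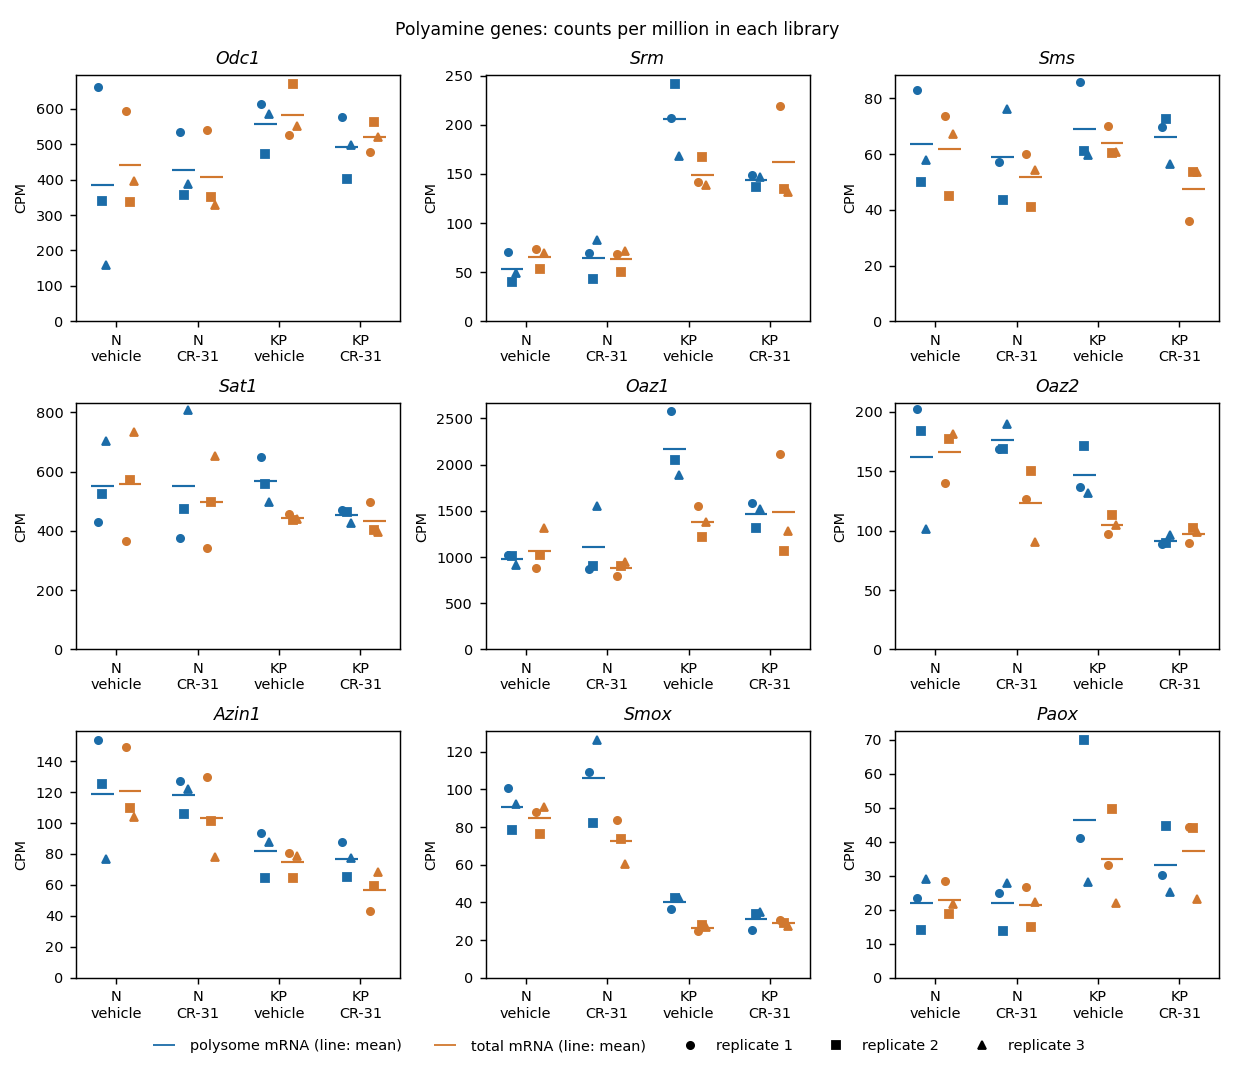
CPM of the 9 genes in each library, by group (horizontal axis) and fraction (blue, polysome mRNA; orange, total mRNA), with symbols for replicates 1 to 3 and a line at the mean. Srm in polysome mRNA of vehicle-treated KP sits at 168 to 241 CPM against 39.7 to 70.1 in N, Smox sits lower in KP than in N in both fractions, and Odc1 spreads from 159 to 660 in vehicle-treated N polysome libraries.

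The first comparison asked which of these mRNAs differed between tumour and normal organoids without drug. In polysome mRNA, Srm, Oaz1 and Paox were higher and Azin1 and Smox lower in KP than in N organoids given vehicle, at an adjusted p under 0.25 (edgeR's quasi-likelihood test with Benjamini-Hochberg adjustment over all tested genes, the study's threshold). This is 5 of 9 members, beside 43.1% of all genes called in either direction in this comparison, 20.9% higher and 22.2% lower. In these bulk samples fewer cells of a type and less RNA per cell cannot be told apart.

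Among the synthases, Srm was at 70.1, 39.7 and 49.2 CPM in the polysome libraries of N and at 207, 241 and 168 in those of KP. Every KP library was above every N library, and the mRNA was 3.88-fold higher in KP (log2 fold change 1.96 ± 0.28, SE; adjusted p = 0.00303). Odc1, the first enzyme of the pathway, was at 660, 339 and 159 CPM in N and at 614, 472 and 584 in KP. The N libraries spread over a wider range than the KP libraries and enclosed them, and Odc1 did not pass the test (0.53 ± 0.40, adjusted p = 0.38). Over all alternatives its adjusted p lay between 0.0449, without N vehicle replicate 1 (1.16 ± 0.34), and 0.752, without N vehicle replicate 3 (0.15 ± 0.31). Sms was at 82.8, 50 and 57.9 CPM in N and 86.0, 61.0 and 59.8 in KP, and did not pass either (0.12 ± 0.26, adjusted p = 0.796).

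Among the antizyme genes, Oaz1 was at 1020, 1010 and 916 CPM in polysome mRNA of N and at 2580, 2050 and 1890 in KP. The groups did not overlap, and Oaz1 was 2.21-fold higher in KP (1.15 ± 0.24, adjusted p = 0.0121). Oaz2 was at 202, 184 and 101 CPM in N and 137, 171 and 132 in KP, with overlapping groups (-0.15 ± 0.24, adjusted p = 0.713). The overlap came from N replicate 3, whose vehicle-treated polysome library stood apart, and without that lysate Oaz2 was at -0.40 ± 0.18 and passed (adjusted p = 0.126, 6 of 9 members beside 48.1% of all genes). Azin1 was at 154, 125 and 76.8 CPM in N and 93.3, 64.5 and 87.6 in KP. Its groups overlapped through N replicate 3, its level was 1.45-fold lower in KP (-0.54 ± 0.26, adjusted p = 0.168), and it did not pass without N vehicle replicate 1 (adjusted p = 0.451), N vehicle replicate 2 (0.309), KP vehicle replicate 2 (0.405) or both lysates of KP replicate 1 (0.256).

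Of the catabolic genes, Smox fell from 101, 78.5 and 92.3 CPM in N to 36.5, 42.1 and 42.2 in KP, with no overlap, and was 2.25-fold lower (-1.17 ± 0.21, adjusted p = 0.00638). Paox, which acts on the acetylated polyamines, was at 23.4, 13.9 and 29 CPM in N and 41, 69.8 and 28.1 in KP. KP replicate 3 lay inside the range of N, and the 2.10-fold higher mean (1.07 ± 0.40, adjusted p = 0.0861) did not pass without the vehicle-treated lysate of KP replicate 2 (0.64 ± 0.40, adjusted p = 0.329). Sat1 was at 429, 526 and 703 CPM in N and 651, 558 and 497 in KP and did not differ beyond this spread (0.04 ± 0.28, adjusted p = 0.941). In polysome mRNA the groups did not overlap for 3 of 9 members, Srm, Oaz1 and Smox, and for 33.8% of all genes.

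In total mRNA of the same vehicle-treated lysates, 4 of 9 members were called, Srm higher and Oaz2, Azin1 and Smox lower in KP, beside 28.5% of all genes (13.1% higher and 15.4% lower). Srm was at 73.9, 53.0 and 69.6 CPM in N and 142, 167 and 139 in KP, a 2.28-fold difference (1.19 ± 0.24, adjusted p = 0.013). Smox was at 87.9, 76.3 and 90.8 CPM in N and 24.7, 28.2 and 26.9 in KP, which is 3.20-fold lower (-1.68 ± 0.17, adjusted p = 0.000658). In both genes every KP library lay apart from every N library. Oaz2 was at 140, 177 and 181 CPM in N and 97.4, 113 and 105 in KP (-0.66 ± 0.20, adjusted p = 0.0601). Azin1 was at 149, 110 and 104 CPM in N and 80.7, 64.4 and 78.5 in KP (-0.70 ± 0.24, adjusted p = 0.0934), and did not pass without the vehicle-treated lysate of KP replicate 2 (adjusted p = 0.253). For these 4 members the groups did not overlap in total mRNA, as for 32.4% of all genes. Oaz1, which was called in polysome mRNA, was at 882, 1020 and 1310 CPM in total mRNA of N and 1550, 1220 and 1380 in KP, with overlapping groups (0.37 ± 0.25, adjusted p = 0.401). Paox (0.60 ± 0.35, adjusted p = 0.315), Odc1 (0.40 ± 0.25, adjusted p = 0.361), Sat1 (-0.33 ± 0.27, adjusted p = 0.505) and Sms (0.04 ± 0.23, adjusted p = 0.939) did not pass in total mRNA.

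**Figure D2:**
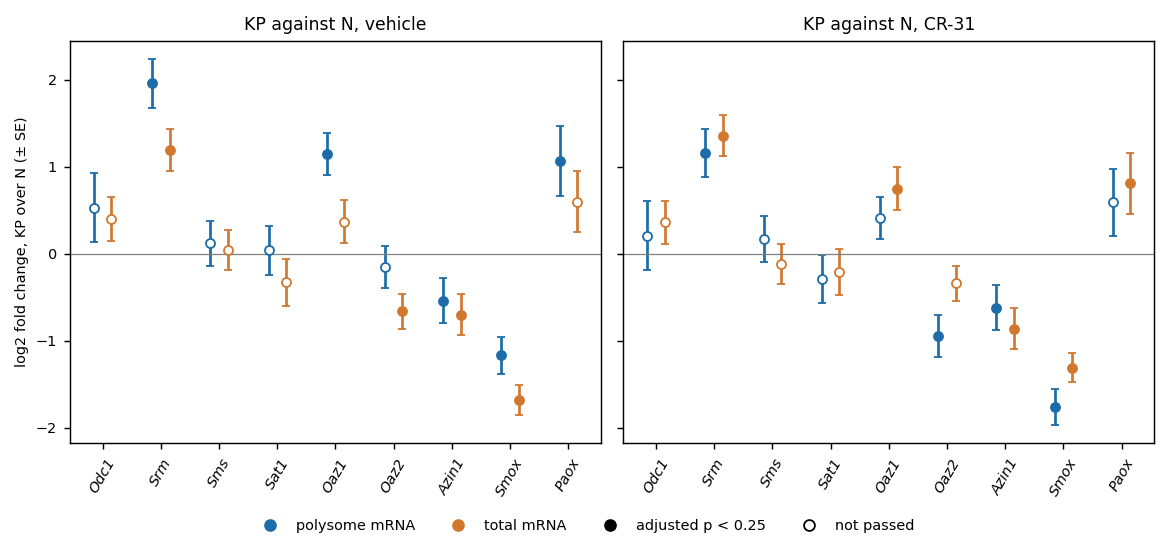
Log2 fold change of KP over N (vertical axis, ± SE, n = 3 each) for each gene in polysome (blue) and total mRNA (orange), with vehicle on the left and CR-31 on the right. Filled symbols passed an adjusted p of 0.25. Srm is above 0 and Azin1 and Smox are below 0 in all 4 comparisons, and Oaz1 passed in polysome mRNA with vehicle (1.15) and in total mRNA with CR-31 (0.75).

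With CR-31 in both organoid types, 4 of 9 members were called between KP and N in polysome mRNA, 1 higher and 3 lower, beside 25% of all genes, 11.2% higher and 13.8% lower. Srm was 2.23-fold higher in KP (1.16 ± 0.28, adjusted p = 0.0327). Oaz2 was at 169, 169 and 190 CPM in CR-31-treated N and at 88.4, 89.6 and 96.1 in KP, 1.93-fold lower with no overlap (-0.95 ± 0.24, adjusted p = 0.0424). Smox was 3.38-fold lower (-1.76 ± 0.21, adjusted p = 0.00181) and Azin1 1.54-fold lower (-0.62 ± 0.26, adjusted p = 0.17), the latter with an adjusted p of 0.265 to 0.359 in the 6 fits without 1 or both lysates of a replicate in which it did not pass. Oaz1 did not pass in CR-31-treated polysome mRNA, where it was at 874, 905 and 1550 CPM in N and 1580, 1310 and 1520 in KP (0.41 ± 0.24, adjusted p = 0.348). The only N library inside the range of KP was that of replicate 3, and without both lysates of that replicate Oaz1 passed (0.72 ± 0.18, adjusted p = 0.0487). Paox (0.59 ± 0.39, adjusted p = 0.415), Odc1 (0.21 ± 0.40, adjusted p = 0.798), Sms (0.17 ± 0.26, adjusted p = 0.753) and Sat1 (-0.29 ± 0.28, adjusted p = 0.601) did not pass in this fraction. In total mRNA with CR-31, 5 of 9 members were called beside 39.9% of all genes (18.9% higher and 21% lower), namely Srm (1.36 ± 0.24, adjusted p = 0.00792), Oaz1 (0.75 ± 0.25, adjusted p = 0.0732) and Paox (0.81 ± 0.35, adjusted p = 0.147) higher and Azin1 (-0.86 ± 0.24, adjusted p = 0.0422) and Smox (-1.31 ± 0.17, adjusted p = 0.00206) lower. Without CR-31-treated KP replicate 1, whose total library stood apart, Oaz1 was at 0.41 ± 0.20 (adjusted p = 0.3) and Paox at 0.66 ± 0.39 (adjusted p = 0.391). Paox also did not pass without N CR-31 replicate 2, KP CR-31 replicate 2 or both lysates of N replicate 3, with adjusted p-values of 0.333, 0.278 and 0.274. The members that were not called in total mRNA with CR-31 were Odc1 (0.36 ± 0.25, adjusted p = 0.349), Oaz2 (-0.34 ± 0.20, adjusted p = 0.272), Sat1 (-0.21 ± 0.27, adjusted p = 0.638) and Sms (-0.12 ± 0.23, adjusted p = 0.765). The comparisons with vehicle and with CR-31 share no library.

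The ratio of polysome to total mRNA, from 2 libraries of the same lysate, gives the translational efficiency of an mRNA relative to the average mRNA. In vehicle-treated KP organoids 3 of 9 members were called as higher in polysome than in total mRNA, beside 27.5% of all genes called in either direction, 14.2% higher and 13.3% lower. Oaz1 had log2 ratios of 0.63, 0.66 and 0.37 (0.55 ± 0.19, adjusted p = 0.113), Smox of 0.46, 0.49 and 0.57 (0.50 ± 0.17, adjusted p = 0.111) and Srm of 0.45, 0.44 and 0.19 (0.36 ± 0.15, adjusted p = 0.188). All 3 ratios of each were above 0. Each of these calls was lost when vehicle-treated KP replicate 1, 2 or 3 was left out, where the log2 ratios stayed between 0.50 and 0.65 for Oaz1, 0.48 and 0.53 for Smox and 0.31 and 0.45 for Srm. The call of Srm was also lost with no filter on low counts (0.36 ± 0.16, adjusted p = 0.271). Oaz2 (0.38 ± 0.22), Paox (0.29 ± 0.18), Sat1 (0.25 ± 0.14), Azin1 (0.03 ± 0.20), Sms (0.00 ± 0.18) and Odc1 (-0.16 ± 0.25) did not pass in vehicle-treated KP. In vehicle-treated N organoids 1 of 9 members was called, beside 15.2% of all genes, 8.83% higher and 6.36% lower in polysome mRNA. This was Srm, with log2 ratios of -0.14, -0.45 and -0.55 (-0.38 ± 0.16, adjusted p = 0.214), a call that was lost in 9 of the 14 fits without 1 or both lysates of a replicate, in which the log2 ratio was -0.38 to -0.27, and with no filter on low counts (adjusted p = 0.322). The others in vehicle-treated N were Odc1 (-0.43 ± 0.25), Oaz1 (-0.16 ± 0.19), Paox (-0.15 ± 0.18), Oaz2 (-0.13 ± 0.22), Azin1 (-0.11 ± 0.20), Sat1 (-0.03 ± 0.14), Sms (-0.01 ± 0.18) and Smox (0.04 ± 0.17), and none of them passed.

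The difference of these ratios between KP and N was above 0 for 9 of 9 members with vehicle in the fit with all lysates, but none was called (edgeR, smallest adjusted p = 0.433, 0% of all genes). DESeq2 called Srm (0.76 ± 0.25, adjusted p = 0.207), 1 of 9 members beside 2.96% of all genes. The median over the members was 0.44 beside 0.00 over all genes, and 2 of 9 members had an unadjusted p under 0.05, beside 11.3% of all genes. Srm had the largest difference (0.74 ± 0.22, adjusted p = 0.433), and Oaz1 was next (0.71 ± 0.26, adjusted p = 0.433). Oaz2 (0.51 ± 0.31), Smox (0.47 ± 0.23), Paox (0.44 ± 0.25), Sat1 (0.29 ± 0.20), Odc1 (0.27 ± 0.36), Azin1 (0.14 ± 0.28) and Sms (0.02 ± 0.25) followed. In vehicle-treated N, replicate 3 had a log2 ratio of -1.37 for Odc1 against 0.08 and -0.03 in the other 2 lysates, and of -0.89 for Oaz2 against 0.46 and 0.02, so that this lysate lay below the others for both. With that vehicle-treated lysate left out, Odc1 (-0.21 ± 0.27), Sms (-0.13 ± 0.27) and Azin1 (-0.07 ± 0.28) were below 0 and 2 of 9 members were called as higher, Srm (0.63 ± 0.23, adjusted p = 0.189) and Paox (0.66 ± 0.23, adjusted p = 0.164), beside 18.8% of all genes. Without both lysates of N replicate 3 the same 3 members were below 0 and 4 were called, Srm, Oaz1, Smox and Paox, beside 35.8% of all genes. When polysome mRNA was instead regressed on total mRNA, 6 of 9 members were above 0, with Oaz2 at -0.44 ± 0.39, Azin1 at -0.30 ± 0.35 and Smox at -1.31 ± 1.08. Oaz1 was the only member called in that fit (0.97 ± 0.26, adjusted p = 0.174, beside 10.5% of all genes). The study limited the slopes of its regression, and no limit was set in this one. Over all alternatives the adjusted p lay between 0.131 and 0.765 for Oaz1 and between 0.0883 and 0.765 for Srm.

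**Figure D3:**
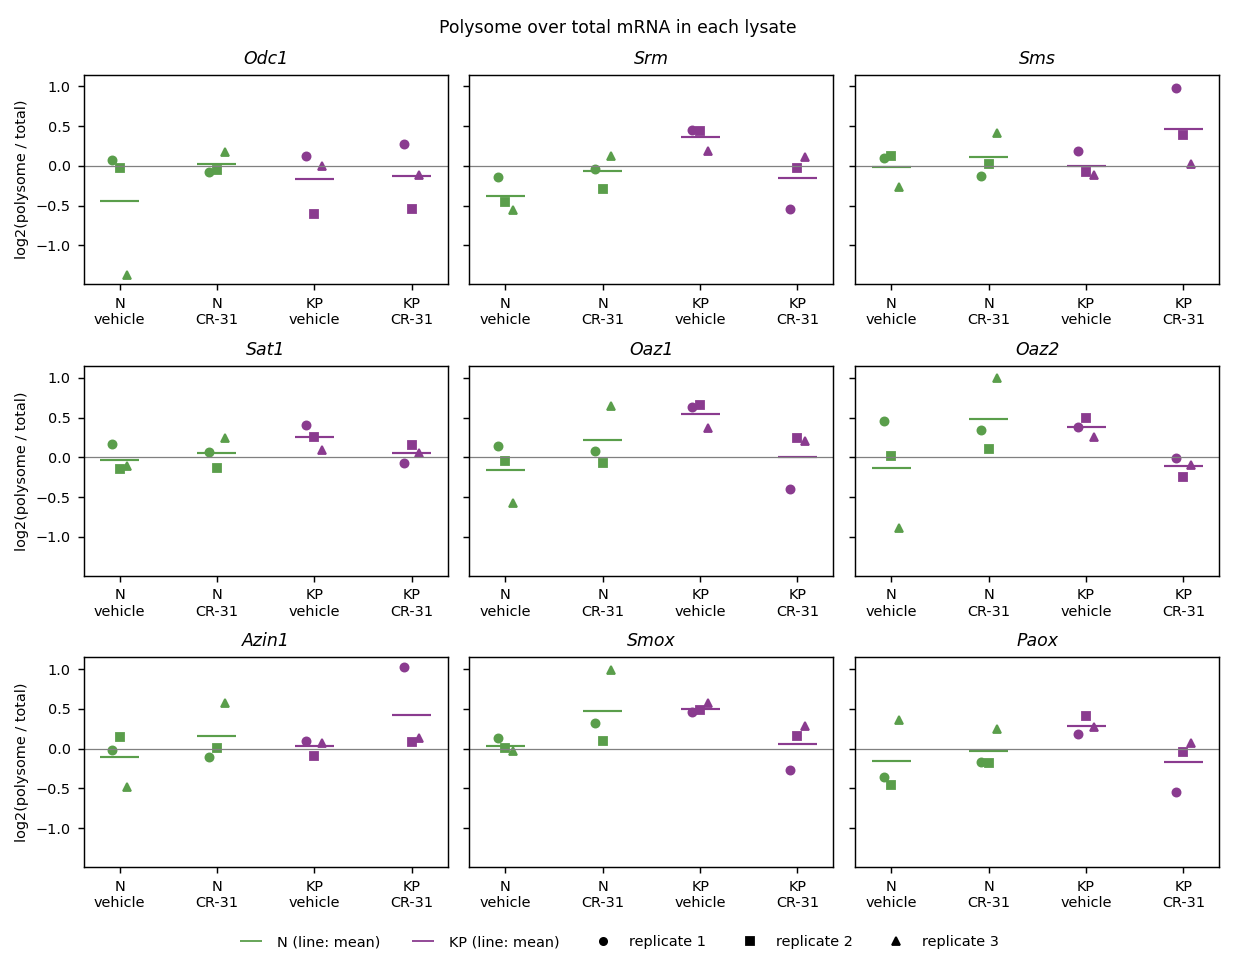
Log2 ratio of polysome to total mRNA in each of the 12 lysates (vertical axis), by gene and group, with symbols for replicates and a line at the mean (green, N; purple, KP). The 3 vehicle-treated KP lysates lie at 0.37 to 0.66 for Oaz1 and 0.46 to 0.57 for Smox, and replicate 3 of vehicle-treated N lies at -1.37 for Odc1.

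With CR-31, the ratio in N was called as higher in polysome mRNA for Smox (log2 ratios 0.32, 0.10 and 0.99) and Oaz2 (0.35, 0.10 and 1.00), at 0.47 ± 0.17 (adjusted p = 0.155) and 0.48 ± 0.22 (adjusted p = 0.249), which is 2 of 9 members beside 18.5% of all genes, 7.81% higher and 10.7% lower. For both genes replicate 3 was the highest, and without its CR-31-treated lysate Smox was at 0.25 ± 0.16 (adjusted p = 0.665) and Oaz2 at 0.27 ± 0.24 (adjusted p = 0.802). Smox was also lost without CR-31-treated N replicate 1 (0.54 ± 0.22, adjusted p = 0.275). Oaz2 was lost in 10 of the 14 fits without 1 or both lysates of a replicate, also where it rose, as without CR-31-treated N replicate 2 (0.70 ± 0.27, adjusted p = 0.267). It was lost as well with RLE normalization (adjusted p = 0.259) and with other filters on low counts. The other 7 members were not called in CR-31-treated N, with Oaz1 at 0.22 ± 0.19, Azin1 at 0.16 ± 0.20, Sms at 0.10 ± 0.18, Sat1 at 0.06 ± 0.14, Odc1 at 0.02 ± 0.25, Paox at -0.03 ± 0.18 and Srm at -0.06 ± 0.16. In CR-31-treated KP only Sms was called, 1 of 9 beside 20.2% of all genes (13.7% higher and 6.5% lower), with log2 ratios of 0.98, 0.39 and 0.03 (0.46 ± 0.18, adjusted p = 0.153). Its highest ratio came from replicate 1, and without that CR-31-treated lysate the value was 0.21 ± 0.17 (adjusted p = 0.755). Azin1 was at 0.41 ± 0.20 (adjusted p = 0.266) in these lysates, and Smox (0.06 ± 0.17), Sat1 (0.05 ± 0.14), Oaz1 (0.01 ± 0.19), Oaz2 (-0.11 ± 0.22), Odc1 (-0.12 ± 0.25), Srm (-0.15 ± 0.16) and Paox (-0.17 ± 0.18) did not pass.

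The effect of CR-31 was then asked for within each organoid type. In polysome mRNA of KP organoids all 9 members had a log2 fold change below 0 with CR-31, with a median of -0.36 beside -0.02 over all genes, and 0 passed an adjusted p of 0.25 (smallest adjusted p = 1, 0% of all genes, edgeR). Before adjustment, 2 of 9 members, Oaz1 and Oaz2, had a p under 0.05 in edgeR, beside 3.55% of all genes. DESeq2 called 0 members as well, but its share of all genes is not given here, so this count has no background. Replicate numbers pair vehicle with CR-31 libraries within an organoid type. With the replicate number as a block, 5 of 9 members were lower with CR-31, namely Oaz2, Oaz1, Srm, Paox and Smox, beside 11.1% of all genes lower and 19.3% in either direction. These calls were close to the threshold. Leaving out a replicate pair from the blocked fit gave 0 members without KP pair 1, 2 or 3 and without N pair 2 (0% of all genes, or 0.00874% without KP pair 1). Without N pair 1 there were 4 members, all lower, beside 6.98% of all genes lower and 14.4% in either direction, and without N pair 3 there were 7, all lower, beside 29.5% lower and 54.9% in either direction. With the sequencing lane as a term, 0 members and 0% of all genes were called.

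Oaz2 had the largest difference, from 137, 171 and 132 CPM with vehicle to 88.4, 89.6 and 96.1 with CR-31. The groups did not overlap, and the level was 1.59-fold lower with the block (-0.67 ± 0.22, adjusted p = 0.194). Oaz1 was at 2580, 2050 and 1890 CPM with vehicle and at 1580, 1310 and 1520 with CR-31. Again every CR-31 library was below every vehicle library, 1.47-fold in the fit with the block (-0.56 ± 0.21, adjusted p = 0.207). Within the lane that held vehicle replicates 1 and 2 and CR-31 replicate 1 the differences were -0.79 for Oaz2 and -0.54 for Oaz1, and within the lane that held vehicle replicate 3 and CR-31 replicates 2 and 3 they were -0.51 and -0.42. Azin1, whose product holds antizyme away from ornithine decarboxylase, was at 93.3, 64.5 and 87.6 CPM with vehicle and 87.5, 65.1 and 77.6 with CR-31 and showed no difference beyond its spread (-0.09 ± 0.19, adjusted p = 0.834, with lane values of 0.17 and -0.30).

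Srm was at 207, 241 and 168 CPM with vehicle and 149, 137 and 147 with CR-31, 1.41-fold lower with the block (-0.50 ± 0.19, adjusted p = 0.214). The groups did not overlap, and the differences within the 2 lanes were -0.58 and -0.25. With CR-31 the 3 KP libraries were closer to each other than with vehicle and stayed above all N libraries, which reached 82.6 CPM. Odc1 was at 614, 472 and 584 CPM with vehicle and 577, 402 and 498 with CR-31, with overlapping groups (-0.18 ± 0.26 with the block, adjusted p = 0.734) and lane values of 0.10 and -0.38. Sms was at 86.0, 61.0 and 59.8 CPM and at 69.7, 72.7 and 56.3 (-0.05 ± 0.19, adjusted p = 0.913, with lane values of -0.06 and 0.10).

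Of the catabolic genes, Smox went from 36.5, 42.1 and 42.2 CPM to 25.4, 33.6 and 34.8 with CR-31, 1.30-fold lower with the block (-0.37 ± 0.14, adjusted p = 0.205) and -0.62 and -0.30 within the lanes. Paox was at 41, 69.8 and 28.1 CPM with vehicle and 30.1, 44.6 and 25.2 with CR-31. These groups overlapped, but each replicate pair decreased, by 0.45, 0.65 and 0.16 on the log2 scale (-0.42 ± 0.14 with the block, adjusted p = 0.193). Within the lanes, which do not keep the pairs together, Paox was at -0.83 and 0.25. Sat1 was at 651, 558 and 497 CPM with vehicle and 469, 463 and 426 with CR-31, without overlap, and did not pass with the block (-0.32 ± 0.15, adjusted p = 0.277, with lane values of -0.36 and -0.16). The groups did not overlap for 5 of 9 members, Srm, Sat1, Oaz1, Oaz2 and Smox, beside 19.5% of all genes in this comparison.

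**Figure D4:**
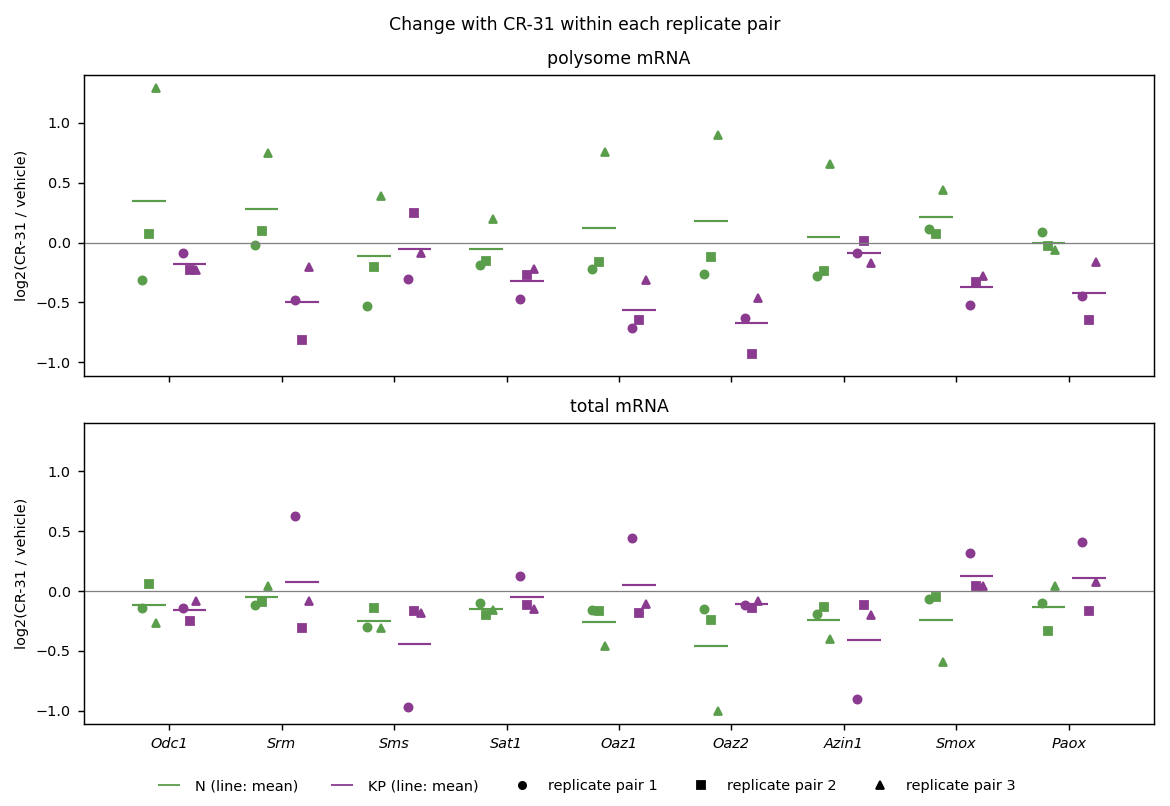
Log2 change from vehicle to CR-31 within each replicate pair (vertical axis) for each gene, in polysome mRNA above and total mRNA below (green, N; purple, KP; symbols, replicate pairs 1 to 3; line, mean). In KP polysome mRNA all 3 pairs are below 0 for every gene but Sms and Azin1. Replicate pair 3 of N is the highest N pair for 8 of 9 genes in polysome mRNA, reaching 1.29 for Odc1.

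In polysome mRNA of N organoids 0 members were called with CR-31 by edgeR, with or without the block (0% of all genes in both fits). Without the block 0 of 9 members and 0.42% of all genes had an unadjusted p under 0.05. DESeq2 called 0 members too, again with no share of all genes given. The replicate pairs went apart. Odc1 changed by -0.31 and 0.07 in pairs 1 and 2 and by 1.29 in pair 3, Oaz2 by -0.26, -0.12 and 0.90, and Oaz1 by -0.22, -0.16 and 0.76. Within the lanes these 3 genes were at 0.17 and 1.23, -0.19 and 0.82, and -0.22 and 0.37. Without N pair 3 and with the block, Odc1 was at -0.11 ± 0.14, Oaz2 at -0.18 ± 0.14 and Oaz1 at -0.19 ± 0.14, and Sms was called as lower (-0.36 ± 0.14, adjusted p = 0.19), 1 of 9 members beside 15% of all genes. Smox was the only member with a change above 0 in all 3 N pairs in polysome mRNA, 0.11, 0.07 and 0.44, and it did not pass (0.21 ± 0.14 with the block, adjusted p = 0.95). Without the block Srm was at 0.29 ± 0.27, Sms at -0.11 ± 0.26 and Azin1 at -0.01 ± 0.26, and Sat1 (SE 0.28) and Paox (SE 0.39) were at 0.00 (adjusted p = 1 for each).

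Whether CR-31 acted differently in KP than in N was tested as an interaction. It was called for 0 members, without the block (smallest adjusted p = 0.999, 0% of all genes) and with it (smallest adjusted p = 0.346, 0% of all genes). At an unadjusted p under 0.05 the blocked fit had 4 of 9 members, Oaz2 (-0.85 ± 0.32), Srm (-0.77 ± 0.27), Oaz1 (-0.68 ± 0.29) and Smox (-0.58 ± 0.20), beside 14.2% of all genes, and the fit without the block had 2, beside 2.26%. Without the block Paox was at -0.48 ± 0.56, Sat1 at -0.33 ± 0.40, Odc1 at -0.32 ± 0.56, Azin1 at -0.09 ± 0.36 and Sms at 0.05 ± 0.37 (adjusted p = 0.999 for each). Without N pair 3, chosen after its values were seen, the blocked fit called 5 of 9 members, beside 27% of all genes. The change in KP minus that in N was then -0.55 for Srm, -0.49 for Oaz2, -0.47 for Smox, -0.46 for Paox and -0.37 for Oaz1, where Srm, Smox and Paox were at 0.05, 0.10 and 0.04 in N, with adjusted p-values of the difference of 0.117, 0.126, 0.101, 0.126 and 0.226. No difference between KP and N was therefore established with all lysates.

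In total mRNA, CR-31 gave 0 called members in either organoid type without the block (edgeR, 0% of all genes) and with it (0% in KP and 0.0612% in N). In KP, 0 of 9 members had an unadjusted p under 0.05 without the block, beside 0.953% of all genes, and in N 1 of 9 had, Oaz2, beside 2.6%. With the block these were 2 of 9 in KP, Sms and Azin1, beside 5.07%, and again Oaz2 in N, beside 9.23%. DESeq2 called 0 members in both, again with no share of all genes given. The 5 members called in polysome mRNA of KP with the block were at 0.08 (Srm), 0.05 (Oaz1), -0.11 (Oaz2), 0.13 (Smox) and 0.11 (Paox) in total mRNA of the same lysates. Oaz1 was at 1550, 1220 and 1380 CPM with vehicle and 2110, 1070 and 1280 with CR-31, and Srm at 142, 167 and 139 and at 219, 135 and 132. In both, the total library of CR-31-treated replicate 1 was higher than all others of KP. Without that lysate and without the block, Srm was at -0.16 ± 0.21, Oaz1 at -0.23 ± 0.21 and Paox at -0.05 ± 0.40 in total mRNA, below 0 where the fit with all lysates had 0.12, 0.10 and 0.09, and again 0 members were called (0% of all genes, adjusted p = 1 for each). For Sms and Azin1 the same library was the lowest, at 35.8 and 43.2 CPM, and they were at -0.44 ± 0.18 and -0.40 ± 0.17 in the blocked fit (adjusted p = 0.884 each). Odc1 (-0.16 ± 0.25) and Sat1 (-0.04 ± 0.27) did not pass in KP total mRNA without the block. Total mRNA of N was below 0 for 9 of 9 members with CR-31, with a median of -0.23 beside 0.00 over all genes, and Oaz2 was at -0.44 ± 0.20 (adjusted p = 1). Its pairs changed by -0.15, -0.24 and -1.0, and without both lysates of N replicate 3 it was at -0.20 ± 0.20 (adjusted p = 1). Oaz1 (-0.28 ± 0.25), Sms (-0.26 ± 0.23), Azin1 (-0.23 ± 0.24), Smox (-0.23 ± 0.17), Sat1 (-0.16 ± 0.27), Odc1 (-0.12 ± 0.25), Paox (-0.11 ± 0.35) and Srm (-0.05 ± 0.24) did not pass either.

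Translational efficiency with CR-31 was not called for any member in KP (smallest adjusted p = 0.529, 0% of all genes, 1 of 9 members at an unadjusted p under 0.05 beside 5.48% of all genes) or in N (smallest adjusted p = 0.736, 0%, 0 of 9 members beside 2.87%). In KP the 3 pairs of polysome over total changed by -0.99, -0.46 and -0.08 for Srm, -1.03, -0.43 and -0.16 for Oaz1, -0.39, -0.75 and -0.34 for Oaz2 and -0.74, -0.44 and -0.20 for Paox, and Smox by -0.72, -0.33 and -0.28. The lowest values of Srm, Oaz1, Paox and Smox came from pair 1, which holds the total library that stood apart. Without that CR-31-treated lysate they were at -0.32 ± 0.20, -0.33 ± 0.26, -0.27 ± 0.25 and -0.28 ± 0.24 (adjusted p = 0.999 for each), against -0.51, -0.54, -0.46 and -0.44 with all lysates. Oaz2 had its lowest in pair 2. Sms and Azin1 went the other way, by 0.79, 0.46 and 0.13 and by 0.93, 0.17 and 0.06. Their highest values also came from pair 1. The log2 ratios in CR-31-treated KP were 0.98, 0.39 and 0.03 for Sms and 1.03, 0.08 and 0.13 for Azin1. Odc1 was at 0.04 ± 0.35 and Sat1 at -0.21 ± 0.20. The regression on total mRNA with the block called 3 members as lower, Oaz2 (-0.84 ± 0.16, adjusted p = 0.231), Oaz1 (-0.51 ± 0.19, adjusted p = 0.237) and Paox (-0.40 ± 0.15, adjusted p = 0.243), beside 8.67% of all genes lower and 16.7% in either direction. No limit was set on the slopes of this regression either, so whether these calls would meet the study's limits is not known. In N all 9 members were above 0 in the fit with all lysates, with Oaz2 at 0.62 ± 0.31, Odc1 at 0.44 ± 0.36, Smox at 0.43 ± 0.24, Oaz1 at 0.37 ± 0.26, Srm at 0.32 ± 0.22, Azin1 at 0.27 ± 0.28, Sms at 0.12 ± 0.25, Paox at 0.11 ± 0.25 and Sat1 at 0.09 ± 0.20. Pair 3 was the highest of the 3 N pairs for every member but Paox, as for Oaz2 (-0.11, 0.08 and 1.89), Odc1 (-0.17, -0.02 and 1.54), Oaz1 (-0.06, -0.02 and 1.2), Azin1 (-0.09, -0.14 and 1.05) and Sms (-0.23, -0.09 and 0.69). Without both lysates of N replicate 3, Odc1, Sms, Sat1, Oaz1, Oaz2 and Azin1 were below 0, between -0.16 and -0.01, and only Srm (0.13 ± 0.22), Smox (0.14 ± 0.19) and Paox (0.23 ± 0.20) were above it. The regression on total mRNA with the block put 5 of 9 members below 0 in N, among them Oaz2 (-0.45 ± 0.23) and Oaz1 (-0.19 ± 0.26). The change in KP minus that in N was called for 0 members with all lysates (smallest adjusted p = 0.419, 0% of all genes). It was -1.11 ± 0.44 for Oaz2, -0.91 ± 0.37 for Oaz1, -0.87 ± 0.33 for Smox and -0.83 ± 0.31 for Srm, and -0.57 ± 0.35 for Paox, -0.41 ± 0.50 for Odc1, -0.30 ± 0.28 for Sat1, 0.11 ± 0.39 for Azin1 and 0.34 ± 0.35 for Sms. Without CR-31-treated N replicate 2 the first 4 of these passed, Oaz2 at -1.30 ± 0.46, Oaz1 at -1.05 ± 0.40, Smox at -1.05 ± 0.34 and Srm at -0.93 ± 0.34 (adjusted p = 0.231 each), beside 16.6% of all genes. Without both lysates of N replicate 3 none passed (0.00874% of all genes), with Oaz2 at -0.49 ± 0.26, Oaz1 at -0.51 ± 0.28, Smox at -0.59 ± 0.24 and Srm at -0.65 ± 0.29 (adjusted p = 0.546 each). The blocked regression gave -0.39 ± 0.24 for Oaz2, -0.31 ± 0.32 for Oaz1, -0.29 ± 0.24 for Smox and -0.76 ± 0.28 for Srm and called 0 members (0% of all genes).

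The members called as lower in KP polysome mRNA with the block are the 5 without an upstream ATG in the annotated 5′-UTR, and none of the 4 with one was called. Both facts are descriptions of 9 genes seen after the values, and no test was made. Over all genes, 11.4% of the 5314 without an upstream ATG and 10.9% of the 5943 with one were called as lower in that fit, and 6.51% and 9.89% as higher, with medians of -0.04 and 0.00. The match among the members did not hold with any single pair left out. Without N pair 3, Odc1 (adjusted p = 0.236) and Sat1 (adjusted p = 0.0383), which have upstream ATGs, were called as well, without N pair 1 Smox was not (adjusted p = 0.253), and without N pair 2 or any single KP pair no member was. Of the 4 members with the longest purine runs, printed above, Sat1 and Azin1 were not called and Smox and Oaz2 were. The longest annotated 5′-UTR among the called members ran from 69 bases in Paox to 299 in Smox, whose shortest has 70 bases.

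Other genes of the pathway were followed from a list of 25 entries, of which 20 were tested. Among those not tested, Agmat was not above 0 in every library, and the S-adenosylmethionine decarboxylases Amd1 and Amd2 and the deoxyhypusine synthase Dhps are entries shared with another symbol. Between vehicle-treated KP and N organoids 6 of the 20 were higher and 2 lower in polysome mRNA, beside 43.1% of all genes called. The translation factor Eif5a, which carries hypusine made from spermidine, was higher in KP (1.13 ± 0.26, adjusted p = 0.0165), as was Dohh, which completes the hypusine (1.35 ± 0.23, adjusted p = 0.00528). Oat, which links ornithine to glutamate, was at 1.38 ± 0.45 (adjusted p = 0.0574), and the lysosomal polyamine exporter Atp13a2 at 1.13 ± 0.27 (adjusted p = 0.0176). The vesicular polyamine transporter Slc18b1 (0.88 ± 0.25, adjusted p = 0.0376) and Adi1 of methylthioadenosine salvage (0.46 ± 0.21, adjusted p = 0.144) were the other two. Azin2, the other antizyme inhibitor, was lower (-1.47 ± 0.41, adjusted p = 0.0338). Mat2a, which makes S-adenosylmethionine, was lower as well (-0.63 ± 0.34, adjusted p = 0.224). In total mRNA 5 were higher and 1 lower, beside 13.1% and 15.4% of all genes, again with Azin2 lower (-2.25 ± 0.34, adjusted p = 0.00389). CR-31 in KP polysome mRNA called 0 of the 20 without the block (0% of all genes). With the block 5 were lower and 0 higher, beside 11.1% of all genes lower. These were Azin2 (-0.79 ± 0.17), Dohh (-0.66 ± 0.15), Atp13a2 (-0.66 ± 0.23), Eif5a (-0.50 ± 0.15) and Mri1 of the same salvage pathway as Adi1 (-0.50 ± 0.15), with adjusted p-values of 0.192 for all but Atp13a2 (0.196). In the blocked fit 0 of the 20 were called without N pair 2 or KP pair 2 or 3 (0% of all genes), or without KP pair 1 (0.00874%). Without N pair 1, 5 of the 20 were lower, beside 6.98% of all genes lower and 14.4% in either direction. Without N pair 3, 5 were lower and 2 higher, beside 29.5% of all genes lower and 54.9% in either direction. In N, 0 of the 20 were called in that fraction with or without the block (0% of all genes in both).

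Across the 24 libraries, which share lysates and differ by organoid type and depth, the members' log2 CPM fell into sets that are given as descriptions. Srm went with Oaz1 (Pearson's r = 0.82) and Paox (0.80) and against Smox (-0.82) and Azin1 (-0.68). Smox went with Azin1 (0.76) and Oaz2 (0.75), and Oaz2 with Azin1 (0.71). The antizyme genes Oaz1 and Oaz2 did not go together (-0.27), and Odc1 went against Sat1 (-0.60). Sms had no r above 0.37 in size with any other member. Of all tested genes, those most like Oaz1 were Ndufc1 (0.968), Smagp (0.958) and Poll (0.939), those most like Odc1 were Zmynd19 (0.963), Kat2a (0.893) and Kmt5a (0.888), and those most like Sat1 were Guca1a (0.916), Ypel3 (0.915) and 2010107G23Rik (0.906).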

How the data were processed

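The deposited table gives a count and an RPKM value per gene and library. Per the labels and the methods, the authors aligned reads with HISAT2, used SAMtools, discarded reads with several positions and made the counts and RPKM values from coding transcripts. The labels name hg38 although the genes are mouse RefSeq genes, so no coordinate was taken from the table, and 5′-UTRs were read from GRCm38 with GENCODE M21. All value columns were mapped to a sample. Genes were tested if they were single entries above 0 in every library (11438 of 19895). Counts were compared with edgeR 4.0.16 (quasi-likelihood test, TMM, R 4.3.3) over the 12 libraries of a fraction, and polysome over total mRNA by an interaction over 24 libraries with the lysate as a block. Benjamini-Hochberg adjustment ran over all tested genes, with a threshold of 0.25. CPM used TMM-scaled library sizes. The rule was to name all 9 members in every comparison, and pathway genes where called in KP against N with vehicle in polysome mRNA or with CR-31. The members and lists were chosen with earlier results of these data known. Deviations of same-numbered vehicle and CR-31 libraries had correlations of 0.553 to 0.892 (N) and 0.455 to 0.803 (KP), all above 0.1 (6 of 6 for both), which is where the pairing within an organoid type comes from. N with KP libraries of a number did so in 2 of 6 each. Alternatives were RLE and upper-quartile scaling, other filters, DESeq2 1.42.0, replicate blocks, a lane term, a regression on total mRNA without the study's limits on slopes (limma 3.58.1) and left-out lysates. Leaving out pairs under the block was added after seeing the data. The tests were tested on simulated data. Some items of the design and of the pathway list are not reported here.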

Additional observations from a re-analysis of the deposited data

Results flagged for a closer look

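For Srm in polysome over total mRNA, and for Smox in polysome, total and polysome over total mRNA, all replicate pairs of N lay on one side of 0 and all of KP on the other in their change with CR-31. For Srm the change in polysome over total mRNA was 0.32 ± 0.32 in N and -0.51 ± 0.45 in KP (mean ± SD, n = 3 pairs each), a difference of -0.83 (interaction in edgeR, SE 0.31, adjusted p = 0.419, and 0.493 with the replicate block). Smox was at 0.43 ± 0.51 in N and -0.44 ± 0.24 in KP by the same measure, a difference of -0.87 (SE 0.33, adjusted p = 0.419, and 0.493 with the replicate block). Without both lysates of N replicate 3 these were -0.65 and -0.59 (adjusted p = 0.546 each), and without both of KP replicate 1 -0.59 and -0.73 (adjusted p = 0.874 each). Without the CR-31-treated lysate of N replicate 2 they were -0.93 and -1.05 and passed (adjusted p = 0.231 each), as 16.6% of all genes did. In polysome mRNA Smox was at 0.21 ± 0.21 in N and -0.37 ± 0.13 in KP, which is a difference of -0.58 (-0.59 in edgeR, SE 0.29, adjusted p = 0.999, and 0.346 with the replicate block). In edgeR it was -0.47 without both lysates of N replicate 3 (adjusted p = 1, and 0.101 with the block) and -0.52 without both of KP replicate 1 (adjusted p = 1, and 0.701 with the block). Total mRNA of Smox went the opposite way, -0.24 ± 0.30 in N and 0.13 ± 0.16 in KP, a difference of 0.37 that was not tested. None of the tested differences passed the threshold with all lysates.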

How the results depend on the processing

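The replicate block within organoid type raised the members called with CR-31 in KP polysome mRNA from 0 to 5, with 4 when N pair 1 and 7 when N pair 3 was left out of the blocked fit and 0 when N pair 2 or any KP pair was. In blocked fits without N pair 3, 1 member was called with CR-31 in N polysome mRNA, 5 for the difference between KP and N in polysome mRNA and 7 for the efficiency in KP, beside 15%, 27% and 46.1% of all genes, and without KP pair 1, 2 were called in N total mRNA, beside 15.1%. The block with all pairs changed no other call of a member. The regression on total mRNA with the replicate block called 3 for the efficiency with CR-31 in KP, beside 16.7%. For the efficiency of KP against N with vehicle, DESeq2 called 1 (Srm) and the regression on total mRNA 1 (Oaz1), against 0, beside 2.96% and 10.5% of all genes. For polysome against total mRNA, no filter on low counts gave 0 in vehicle-treated N against 1 (8.15% of all genes against 15.2%) and 2 in vehicle-treated KP against 3, where Srm was lost (14.1% against 27.5%), and RLE normalization, filterByExpr and no filter gave 1 each in CR-31-treated N against 2 (18.6%, 14.6% and 9.49% against 18.5%). A block of replicate numbers shared between N and KP, which the check of pairing did not bear out, called 6, 4, 4 and 6 members against 5, 4, 4 and 5 in polysome mRNA with vehicle and with CR-31 and in total mRNA with vehicle and with CR-31, beside 50%, 33.6%, 35.5% and 45.7% of all genes against 43.1%, 25%, 28.5% and 39.9%. Leaving out lysates gave 3 to 6, 3 to 5, 3 to 7 and 3 to 6 members in those same comparisons, while the share of all genes ran from 24.6% to 52.6%, 8.03% to 34.7%, 14.1% to 32.9% and 15.7% to 42.3%. It gave 0 to 4 for the efficiency of KP against N (0% to 35.8%) and 0 to 4 for the difference of the CR-31 effect on efficiency (0% to 16.6%). For polysome against total mRNA it gave 0 to 2 in N vehicle (1.75% to 35.7%), 0 to 2 in N CR-31 (4.27% to 30.2%), 0 to 6 in KP vehicle (0.481% to 47.8%) and 0 to 2 in KP CR-31 (2.38% to 39.7%). The other counts stayed at 0. With CR-31 in KP polysome mRNA, Sms (-0.06) turned to 0.02 with a lane term and to 0.08 and 0.01 under the replicate block without KP pair 1 or 3, and ranged from -0.13 to 0.13 over left-out lysates, while Azin1 (-0.09) ranged from -0.23 to 0.01. Of 128 member values that did not pass, 69 changed sign and 44 passed under 1 or more alternatives. The cause of these changes was not tested. With 3 replicates a group, counting error was small beside the spread between replicates, and no fit at another depth was made.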
